A study of Mus musculus with 40 samples.

Results

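Non-muscle myosin II subunits and the regulators of their light chains are described here across all 20 groups of the series. The 9 genes were found by their symbols among the 51789 genes of the count table. They are the heavy chains Myh9, Myh10 and Myh14, the essential light chain Myl6, the regulatory light chains Myl9, Myl12a and Myl12b, the myosin light chain kinase Mylk, and Ppp1r12a, the subunit that directs myosin phosphatase to myosin. RNA of cultured mouse melanoma cells was measured in 40 libraries, 2 for each group, by QuantSeq. This method reads the 3′ end of polyadenylated transcripts, so that counts do not grow with transcript length. The comparisons ask how far each of 2 Myh9 hairpins lowered Myh9 in each kind of cell, and whether the other subunits were higher where Myh9 was lower.

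Non-muscle myosin II is a motor built on a pair of heavy chains, each of which holds an essential and a regulatory light chain. Phosphorylation of the regulatory light chain, by Mylk among other kinases, lets the motor assemble into filaments that pull on actin, and myosin phosphatase reverses this step. In melanoma cells, as in other motile cells, these filaments set cortical tension, adhesion and the way cells move. Myh9, Myh10 and Myh14 encode the heavy chains of the isoforms A, B and C, and a cell can use several of them at once.

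YUMM2.1 cells derive from a mouse melanoma with Braf V600E, Cdkn2a +/- and a stabilised β-catenin allele (Bcat STA/+), and YUMM1.7 cells from a melanoma with Braf V600E and Cdkn2a -/-. The aC3 cells are a single Bmal1-null clone of YUMM2.1 made by CRISPR editing. YUMM2.1, aC3 and YUMM1.7 cells carried an empty vector (EV), wild-type Bmal1 (WT) or dHLH-Bmal1 (dHLH), which the sample titles write as bH or dH. The dHLH mutant still pairs with Clock and lowers the activity of the endogenous clock factors. In YUMM2.1 and aC3 the vectors were lentiviral and cells were sorted for the GFP that they encode. The authors describe these lines as made from cells that already held a Bmal1 promoter luciferase reporter, selected with blasticidin. YUMM2.1 cells with EV, WT or dHLH were further transduced with a scramble hairpin (shNC) or with either of 2 hairpins against Myh9, shMyh9#2 and shMyh9#4, and kept as puromycin-selected populations. B16-F10 cells were a control clone (Ctrl) and a clone labelled Bmal1 KO, so that each of these groups, like aC3, stands for 1 clone.

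Library totals ranged from 3643332 to 22970049 counts with a median of 10021164.5, and the group with the lowest totals was dHLH cells with shMyh9#4 (3643332 and 6001340). Comparisons between lines, and of EV shNC with YUMM2.1 EV cells without a hairpin, cannot tell line or hairpin from library preparation. The unit CPM stands for counts relative to library size, with TMM normalization over all 40 libraries, and an adjusted p is that of edgeR's quasi-likelihood test over all genes of the fit, called under 0.05. Both libraries of a group carry a replicate number, and the labels do not say what a number shares. The authors call the pairs biological replicates for B16-F10, YUMM2.1 and part of the hairpin cells, and duplicates for aC3. The p-values measure the spread between these libraries and not between independent lines or clones. A normalized table that accompanies the data holds the second EV library and the first WT library of YUMM2.1 under each other's name, while its other columns match the labels. These libraries, YUMM2.1 EV replicate 2 and YUMM2.1 WT replicate 1, are called doubtful here. The labels as deposited were used, and results that rest on these libraries are also given with the labels exchanged or with both libraries left out. Bmal1 (Arntl) had 319 and 221 counts in the B16-F10 Ctrl libraries and 326 and 240 in those labelled KO. It had 370 and 329 counts in aC3 EV, against 192 and 129 in YUMM2.1 EV and 163 in the doubtful YUMM2.1 WT replicate 1. A loss of 3′ counts thus did not mark the edited clones, where an edit may leave the 3′ end of the transcript in place. In aC3 EV the counts were higher than in YUMM2.1 EV, the line it was made from. The KO libraries of B16-F10 also stood apart from each other, with the lowest correlation of log2 counts in any group (0.956). Of 7 melanocytic markers, Sox10 and Mitf had counts in every library and the pigmentation genes Tyrp1 and Mlana were at 0 in 36 of the 40, Dct in 33, Pmel in 18 and Tyr in 13. These pigmentation genes were highest in B16-F10 libraries, where Dct reached 17370, Pmel 4289, Tyrp1 2053, Mlana 1043 and Tyr 192.7 CPM. The leukocyte marker Cd3e and the epithelial marker Epcam were at 0 in all 40 libraries, but other markers of these lists were not. Among leukocyte markers Cd68 had counts in every library (0.356 to 3.82 CPM) and Lyz2 reached 5.09 CPM. The epithelial marker Krt18, at 0 in 14 libraries, reached 6.52 CPM. Among endothelial markers Pecam1 had counts in every library (3.70 to 13.2 CPM) and Cdh5, at 0 in 4 libraries, reached 19.9 CPM.

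The genes lie on the mm10 build (GRCm38, GENCODE M21 annotation) at chr15:77760587-77842175 for Myh9 (minus strand), chr11:68691559-68816632 for Myh10 (plus), chr7:44605803-44670843 for Myh14 (minus), chr10:128490860-128494145 for Myl6 (minus), chr2:156775420-156781658 for Myl9 (plus), chr17:70993656-71002878 for Myl12a (minus), chr17:70973133-70990890 for Myl12b (minus), chr16:34745210-35002420 for Mylk (plus) and chr10:108162193-108284475 for Ppp1r12a (plus). Myl12a and Myl12b are neighbours with near-identical products. Among 75-base stretches within the last 500 bases of their transcripts, 24.6% for Myl12a, 39.1% for Myl12b and 20.4% for Myl6 were also found in another gene, and none for the other 6 genes, so counts of these 3 genes depend on how shared reads were divided. Myh9, Myh14, Myl12a, Myl12b and Mylk overlap other annotated genes, and whether reads were counted by strand is not given in the sources used here.

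The promoter windows below, from 250 bases before to 50 bases after the RefSeq start (GRCm38.p6), are shown because the cells carried Bmal1 constructs, and Bmal1 with Clock binds the E-box CACGTG, while serum response factor, a regulator of many cytoskeletal genes, binds the CArG box. Capitals mark these motifs. Of the 32851 promoters in the RefSeq table, 7.15% held CACGTG and 1.63% a CArG box within the 300 bases, on either strand. The Myh9 window (chr15:77842126-77842425, minus strand) held neither motif, nor did those of Myh10, Myh14, Myl12b, Mylk and Ppp1r12a. The Myl12a window (chr17:71002484-71002783, minus strand) held CACGTG 50 bases before the start, the Myl9 window (chr2:156775214-156775513, plus strand) a CArG box 161 bases before it, and a Myl6 window at a start inside the gene (chr10:128492960-128493259, minus strand) a CArG box 50 bases before it, while the window at the outer Myl6 start held none. A match of letters is a description and not a bound site.
Myh9: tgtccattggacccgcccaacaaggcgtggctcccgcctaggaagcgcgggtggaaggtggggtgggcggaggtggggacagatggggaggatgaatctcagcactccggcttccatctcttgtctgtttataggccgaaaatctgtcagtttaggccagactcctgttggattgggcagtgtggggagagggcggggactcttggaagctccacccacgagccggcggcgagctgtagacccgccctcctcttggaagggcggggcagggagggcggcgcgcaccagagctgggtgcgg
Myl12a: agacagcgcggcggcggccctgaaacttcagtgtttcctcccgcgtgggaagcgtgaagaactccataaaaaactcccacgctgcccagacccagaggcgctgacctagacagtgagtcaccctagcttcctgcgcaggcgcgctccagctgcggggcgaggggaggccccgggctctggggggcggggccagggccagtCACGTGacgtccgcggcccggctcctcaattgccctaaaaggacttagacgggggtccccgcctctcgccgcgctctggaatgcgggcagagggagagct
Myl9: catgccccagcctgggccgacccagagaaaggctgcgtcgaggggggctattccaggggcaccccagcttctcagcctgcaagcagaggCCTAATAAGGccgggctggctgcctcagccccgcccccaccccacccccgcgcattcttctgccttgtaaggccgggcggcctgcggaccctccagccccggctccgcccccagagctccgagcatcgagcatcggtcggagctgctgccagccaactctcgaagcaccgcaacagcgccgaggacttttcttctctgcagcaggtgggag
Myl6: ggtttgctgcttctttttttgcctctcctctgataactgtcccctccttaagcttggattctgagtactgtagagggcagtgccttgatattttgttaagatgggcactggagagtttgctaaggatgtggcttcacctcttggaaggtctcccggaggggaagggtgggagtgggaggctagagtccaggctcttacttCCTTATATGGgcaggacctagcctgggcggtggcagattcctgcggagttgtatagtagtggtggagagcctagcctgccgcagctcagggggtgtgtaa

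Myh9 was the most abundant heavy chain in every group, and its level separated the cell lines into B16-F10 and the rest. In cells without a hairpin, the YUMM2.1 libraries held Myh9 at 582 and 745 CPM with EV, 602 and 666 CPM with WT, and 751 and 910 CPM with dHLH. It was at 536 to 614 CPM in the 6 aC3 libraries and at 595 to 674 CPM in the 6 YUMM1.7 libraries. The B16-F10 libraries were lower, at 235 and 224 CPM in Ctrl and 232 and 329 CPM in the libraries labelled KO. Over the 20 group means the order ran from YUMM2.1 WT shNC (971 CPM) and dHLH shNC (892 CPM) down to the 3 groups with shMyh9#2 (277, 239 and 237 CPM) and B16-F10 Ctrl (230 CPM). Both WT shNC libraries lay above those of dHLH shNC, which overlapped YUMM2.1 dHLH without a hairpin, and both of the latter lay above EV shNC. Next in that order the libraries of neighbouring groups overlapped from YUMM2.1 EV shNC (684 CPM) down to aC3 dHLH (588 CPM), while both aC3 WT libraries (542 and 536 CPM) lay below them. B16-F10 Ctrl, which carried no hairpin, overlapped the libraries of YUMM2.1 EV and WT cells with shMyh9#2.

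**Figure D1:**
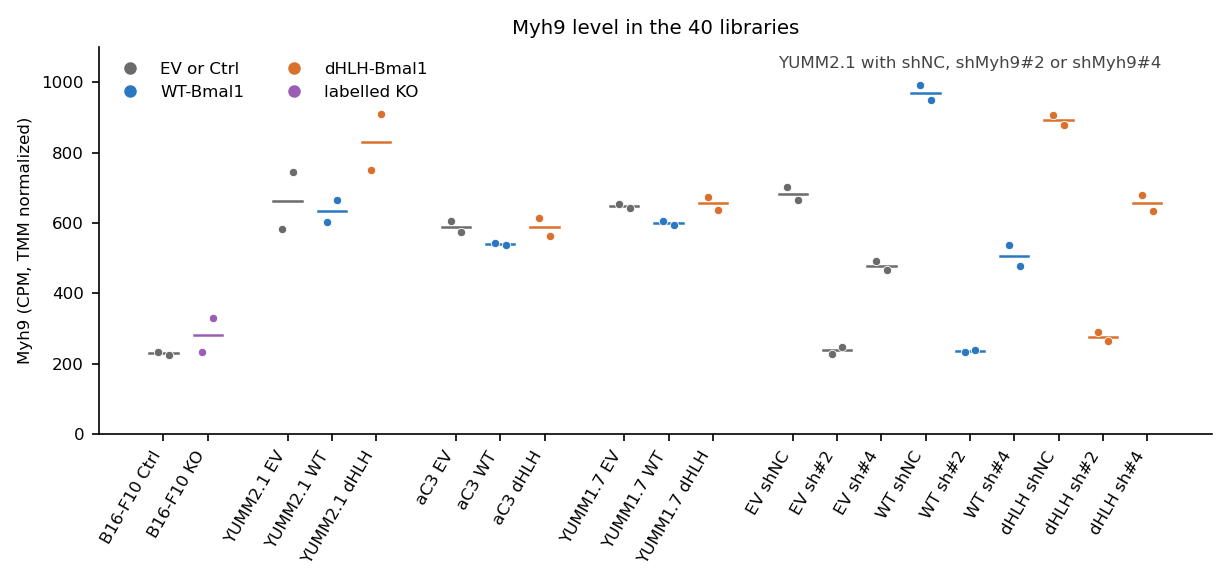
Myh9 level (CPM, TMM normalized, linear axis from 0) in each of the 40 libraries, 1 point a library, with a line at the mean of each group. The shMyh9#2 groups lie between 229 and 291 CPM, the shMyh9#4 groups between 465 and 678 CPM, and the shNC groups between 665 and 993 CPM.

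Both hairpins lowered Myh9, and shMyh9#2 went further than shMyh9#4 in each kind of cell. In EV cells Myh9 stood at 703 and 665 CPM with shNC, at 229 and 248 CPM with shMyh9#2 and at 492 and 465 CPM with shMyh9#4. In WT cells it stood at 993 and 948 CPM with shNC, at 234 and 241 CPM with shMyh9#2 and at 538 and 477 CPM with shMyh9#4. In dHLH cells it stood at 908 and 877 CPM with shNC, at 291 and 263 CPM with shMyh9#2 and at 678 and 635 CPM with shMyh9#4. The 3 conditions did not overlap in any of the 3 kinds of cell, and the shMyh9#2 libraries of all 3 lay within 229 to 291 CPM although their shNC controls ran from 665 to 993 CPM.

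With shMyh9#2 the fitted Myh9 level was 35.0% of shNC in EV cells (log2 fold change -1.515, 95% interval -1.72 to -1.31, adjusted p = 4.94e-08). It was 24.4% in WT cells (-2.04, -2.24 to -1.83, adjusted p = 1.30e-09) and 30.9% in dHLH cells (-1.69, -1.90 to -1.49, adjusted p = 2.54e-08). With shMyh9#4 it was 69.9% in EV cells (-0.52, -0.71 to -0.32, adjusted p = 0.00500), 52.4% in WT cells (-0.93, -1.13 to -0.73, adjusted p = 2.23e-04) and 74.7% in dHLH cells (-0.42, -0.62 to -0.22, adjusted p = 0.00715). The smaller effects of shMyh9#4 rested on single libraries for their call. Without EV shNC replicate 1 the log2 fold change in EV cells was -0.47 (adjusted p = 0.0910), and without EV shMyh9#4 replicate 2 it was -0.48 (adjusted p = 0.0598). In dHLH cells it was -0.39 without shNC replicate 1 (adjusted p = 0.0671) and -0.38 without shMyh9#4 replicate 2 (adjusted p = 0.0994).

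The hairpins set against each other gave a Myh9 level with shMyh9#2 of 50.1% of that with shMyh9#4 in EV cells (log2 difference -0.998, adjusted p = 2.29e-05), 46.5% in WT cells (-1.105, adjusted p = 2.36e-06) and 41.4% in dHLH cells (-1.27, adjusted p = 5.96e-07). These calls held without any 1 of the 18 libraries. As background for the members, shMyh9#2 changed 6.65% of the 14848 genes tested in EV cells, 4.76% in WT cells and 0.559% in dHLH cells, and shMyh9#4 changed 1.71%, 0.236% and 15.1%. Of the 9 myosin genes, 2 passed with shMyh9#2 in EV cells, and Myh9 alone in WT and in dHLH cells. With shMyh9#4, 2 passed in EV cells, Myh9 alone in WT cells and 3 in dHLH cells. Between the hairpins 0.492%, 6.02% and 16.7% of genes differed in EV, WT and dHLH cells, against 1, 2 and 4 of the 9 myosin genes. Both hairpins were compared with the same shNC libraries.

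Whether the depth of knockdown depended on the construct was tested as a difference of the hairpin effects. The log2 effect of shMyh9#2 on Myh9 was larger in WT than in EV cells by -0.52 (95% interval -0.80 to -0.24, adjusted p = 0.0295), where 5.18% of all genes passed. The level reached with shMyh9#2 overlapped between WT and EV cells (group means 237 and 239 CPM), while the level with shNC was 971 and 684 CPM. Between dHLH and EV cells the log2 effect of shMyh9#2 differed by -0.18 (-0.46 to 0.10, adjusted p = 0.542), where 3.29% of genes passed. Between dHLH and WT cells it differed by 0.345 (0.07 to 0.62, adjusted p = 0.489), where 0.189% of genes passed. For shMyh9#4 the effect differed between dHLH and WT cells by 0.51 (0.23 to 0.79, adjusted p = 0.0465), between WT and EV cells by -0.42 (-0.70 to -0.14, adjusted p = 0.206) and between dHLH and EV cells by 0.10 (-0.18 to 0.37, adjusted p = 0.711), where 3.1%, 0.741% and 8.51% of genes passed. Among the 9 genes, Myh9 was the only call for shMyh9#2 between WT and EV cells, Myl12a for shMyh9#4 between dHLH and EV cells, and Myh9 and Myl12a for shMyh9#4 between dHLH and WT cells. The other 3 differences called none of the 9 with edgeR (2 with an unadjusted p under 0.05 for shMyh9#2 between dHLH and EV cells, 2 for it between dHLH and WT cells, and 1 for shMyh9#4 between WT and EV cells), and DESeq2 called 0, 0 and 1 of them. Both Myh9 calls lay near the threshold. That of shMyh9#2 was lost on leaving out any 1 of 9 of the 18 libraries (adjusted p up to 0.137) and that of shMyh9#4 any 1 of 13 (adjusted p up to 0.249), with log2 differences of -0.57 to -0.45 and of 0.42 to 0.62.

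The 3 heavy chains summed to 759.5 and 730 CPM in EV shNC, 1089 and 1017 CPM in WT shNC, and 995.5 and 977 CPM in dHLH shNC libraries. Because reads come from the 3′ end, these sums are not weighted by transcript length. Other differences in how fully transcripts of the 3 genes were counted were not examined. Over the 6 shNC libraries the sum was 928 ± 147 CPM (SD, n = 6), against 342 ± 22.4 CPM (SD, n = 6) with shMyh9#2 and 628 ± 104 CPM (SD, n = 6) with shMyh9#4. The sum with shMyh9#2 was 36.8% of shNC (exact two-sided permutation test, p = 0.002165, the smallest that 6 against 6 allows). With shMyh9#4 it was 67.7% (exact permutation test, p = 0.0108). Myh9, the target of both hairpins, made up 91.8%, 92.2% and 90.5% of heavy chain counts with shNC in EV, WT and dHLH cells. These tests therefore mostly restate the fall of Myh9 and do not test whether Myh10 and Myh14 filled the loss. The 6 libraries of an arm hold 3 constructs and so are not independent of them, and the shMyh9#2 libraries (308 to 371 CPM) did not overlap either other arm, while those with shMyh9#4 (523 to 770 CPM) overlapped shNC (730 to 1089 CPM) between constructs. Within each construct both shMyh9#4 libraries lay below both shNC libraries (560.0 and 523 CPM in EV, 618 and 557 CPM in WT, 770.2 and 741 CPM in dHLH cells), a matching that the permutation test does not use.

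**Figure D2:**
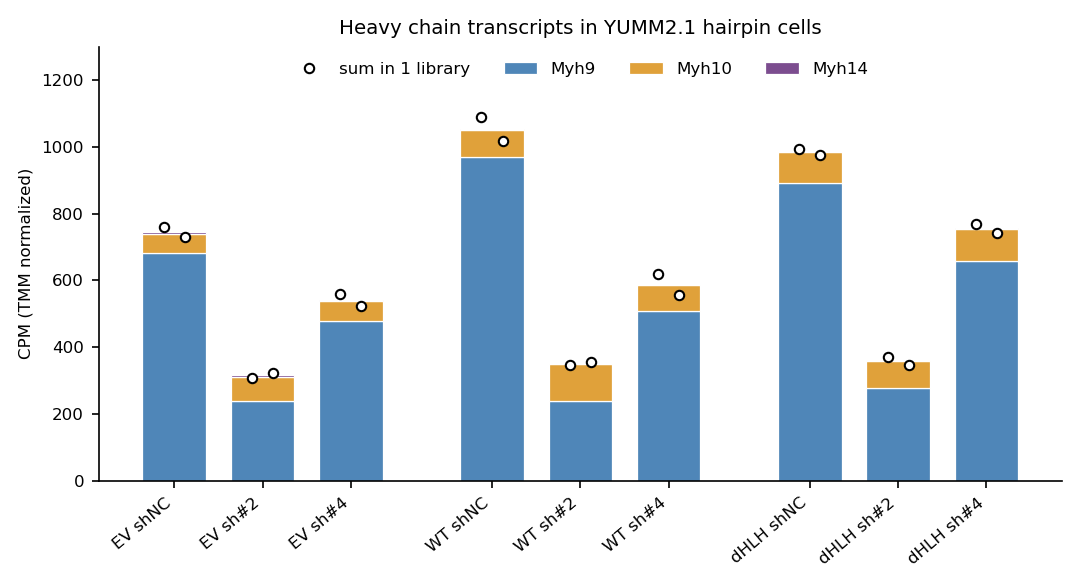
Heavy chain transcripts (CPM, TMM normalized, stacked bars from 0) for each hairpin in YUMM2.1 cells that carried EV, WT-Bmal1 or dHLH-Bmal1. Segments are the group means of Myh9, Myh10 and Myh14, and circles are the sum of all 3 in each library. The Myh10 segment runs from 55.8 CPM in EV shNC to 113 CPM in WT shMyh9#2, while the Myh9 segment falls to 237 to 277 CPM with shMyh9#2.

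What Myh10 and Myh14 gained was small beside what Myh9 lost. In EV cells with shMyh9#2 Myh9 fell by 445 CPM while Myh10 and Myh14 together were higher by 16.7 CPM, which is 3.76% of the loss. In WT cells with shMyh9#2 the loss was 733 CPM and the other heavy chains were higher by 31.5 CPM, or 4.30% of it. In dHLH cells with shMyh9#2 Myh9 fell by 615.5 CPM and the other heavy chains differed by -12.4 CPM. With shMyh9#4 the change of the other heavy chains lay between -0.44% and 2.15% of the loss of Myh9. The share of Myh9 among heavy chain counts was 91.8%, 92.2% and 90.5% in EV, WT and dHLH cells with shNC and 75.45%, 67.6% and 77.2% with shMyh9#2 (means of 2 libraries), so that Myh9 was still the major heavy chain RNA in all of them.

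Myh10, the heavy chain of isoform B, was called in none of the 6 comparisons of a hairpin with shNC. In EV cells it was at 52.8 and 58.7 CPM with shNC, 75.6 and 71.2 CPM with shMyh9#2, and 65.4 and 53.9 CPM with shMyh9#4. In WT cells it was at 93.3 and 66.9 CPM with shNC, 112 and 113 CPM with shMyh9#2, and 78.7 and 78.7 CPM with shMyh9#4. In dHLH cells it was at 87.4 and 99.7 CPM with shNC, 80.7 and 82.2 CPM with shMyh9#2, and 91.3 and 105 CPM with shMyh9#4. Both shMyh9#2 libraries were thus above both shNC libraries in EV and in WT cells and below them in dHLH cells. The log2 fold change with shMyh9#2 was 0.40 in EV cells (95% interval 0.09 to 0.71, adjusted p = 0.118), 0.49 in WT cells (0.19 to 0.79, adjusted p = 0.0569) and -0.20 in dHLH cells (-0.50 to 0.10, adjusted p = 0.704). In WT cells the change passed with DESeq2 (adjusted p = 0.0333), with no filter on low counts (adjusted p = 0.01755) and without WT shNC replicate 1, the higher shNC library (0.75, adjusted p = 0.0123). With shMyh9#4 the log2 fold changes were 0.09, -0.02 and 0.10 in EV, WT and dHLH cells, with intervals between -0.33 and 0.40. Set against shMyh9#4, Myh10 was higher with shMyh9#2 in WT cells by 0.51 (0.21 to 0.81, adjusted p = 0.0412), a call lost in one fit of all 40 libraries (adjusted p = 0.197), in the fit of WT cells alone (adjusted p = 0.0806) and on leaving out any 1 of 7 libraries (adjusted p up to 0.173).

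Myh14, the heavy chain of isoform C, was low in every YUMM2.1 cell with a hairpin, and its own tests against shNC called nothing. It was at 4.19 and 5.83 CPM in EV shNC, 3.82 and 4.37 CPM in EV shMyh9#2, and 3.11 and 3.59 CPM in EV shMyh9#4. In WT cells it lay between 0.73 and 2.45 CPM over the 6 libraries. In dHLH cells it rested on 5 counts with shNC, 1 count with shMyh9#2 and 7 counts with shMyh9#4, each summed over 2 libraries. The call between the hairpins in dHLH cells (adjusted p = 0.0226) rests on these 7 counts against 1, a ratio of 14.1 with a 95% counting interval of 1.82 to 637, and was lost with DESeq2 (adjusted p = 0.0629) and without dHLH shMyh9#2 replicate 1 (adjusted p = 0.0515), dHLH shMyh9#2 replicate 2 (adjusted p = 0.1698) or dHLH shMyh9#4 replicate 2 (adjusted p = 0.2565). Intervals of this kind cover counting error only.

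**Figure D3:**
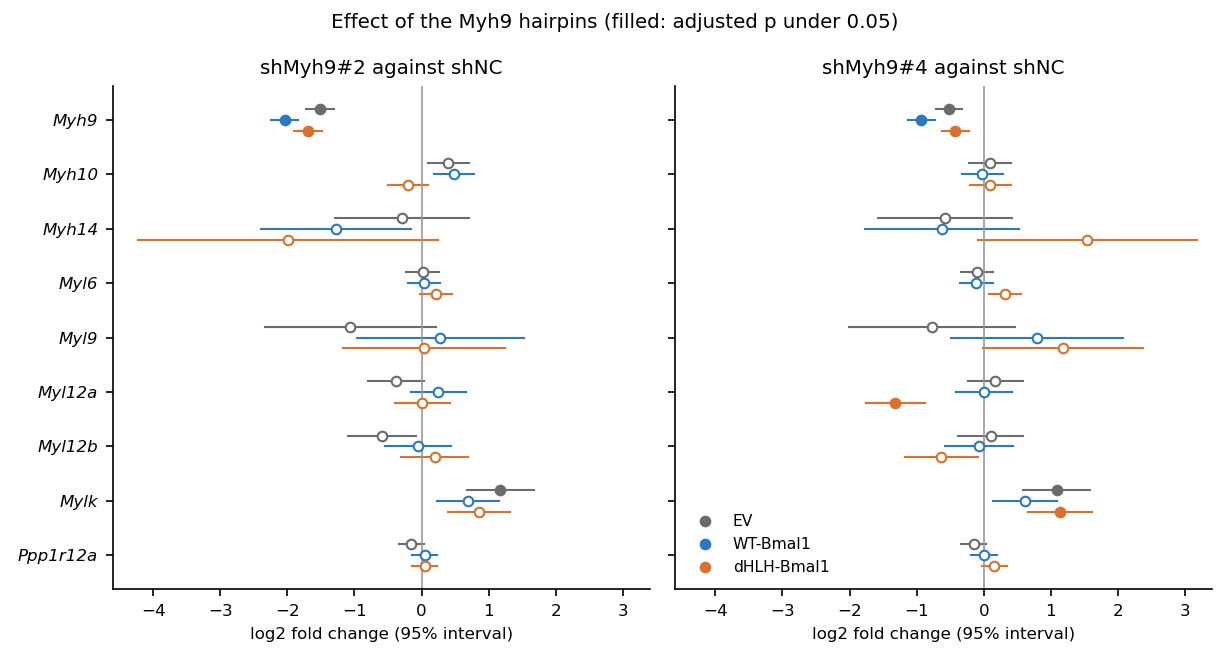
Log2 fold change of each of the 9 genes with shMyh9#2 (left) and shMyh9#4 (right) against shNC, in YUMM2.1 cells of each construct (EV, WT-Bmal1, dHLH-Bmal1). Bars are 95% intervals of the edgeR fit and filled points have an adjusted p under 0.05. Myh9 lies left of 0 in all 6 comparisons and Mylk right of 0 in all 6, with 3 of the Mylk points filled.

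The essential light chain Myl6, at 1084 to 1787 CPM in the 18 hairpin libraries, was the most abundant of the 9 transcripts and passed in no hairpin comparison. With shMyh9#2 its log2 fold change was 0.02 in EV cells (95% interval -0.23 to 0.26), 0.04 in WT cells (-0.21 to 0.28) and 0.21 in dHLH cells (-0.03 to 0.46). With shMyh9#4 it was -0.10, -0.11 and 0.32, and the last of these (0.07 to 0.56, adjusted p = 0.0746) passed with DESeq2 (adjusted p = 0.0295).

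Among the regulatory light chains, Myl12a was the major transcript, Myl12b came next and Myl9, the form typical of smooth muscle, was below 10 CPM in every library. Myl12a was at 181 and 172 CPM in EV shNC, 121 and 148 CPM in EV shMyh9#2, and 191 and 207 CPM in EV shMyh9#4. In WT cells it was at 166 and 153 CPM with shNC, 200.1 and 180.3 CPM with shMyh9#2, and 123 and 196 CPM with shMyh9#4. In dHLH cells it was at 227 and 198 CPM with shNC, 165 and 262 CPM with shMyh9#2, and 94.1 and 74.9 CPM with shMyh9#4. The dHLH cells with shMyh9#4 were the lowest of all 18 libraries for Myl12a.

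That fall of Myl12a with shMyh9#4 in dHLH cells was a log2 change of -1.32 (95% interval -1.75 to -0.88, adjusted p = 0.00117), to 40.2% of shNC. It differed from the effect of shMyh9#4 in EV cells by -1.49 (-2.09 to -0.89, adjusted p = 0.00448) and from that in WT cells by -1.32 (-1.92 to -0.72, adjusted p = 0.0219). The second of these calls was lost without any 1 of 5 libraries (adjusted p up to 0.158) and in one fit of all 40 libraries (adjusted p = 0.0872). In dHLH cells Myl12a was higher with shMyh9#2 than with shMyh9#4 by 1.33 (adjusted p = 0.00101). The dHLH shMyh9#4 group has the lowest totals of the series. Myl12b, whose reads are partly shared with Myl12a, was at 26.7 and 29.2 CPM with shNC and at 22.8 and 13.55 CPM with shMyh9#4 in dHLH cells. Its log2 fold change there was -0.63 (adjusted p = 0.108), and between the hairpins it was higher with shMyh9#2 by 0.83 (0.28 to 1.38, adjusted p = 0.0364), a call lost without dHLH shMyh9#2 replicate 2 (adjusted p = 0.298), without dHLH shMyh9#4 replicate 2 (adjusted p = 0.403), without EV shNC replicate 2 (adjusted p = 0.05016) or with dHLH cells fitted alone (adjusted p = 0.0606). In EV cells shMyh9#2 gave Myl12a and Myl12b log2 fold changes of -0.38 (adjusted p = 0.278) and -0.59 (adjusted p = 0.160), both called with no filter on low counts (adjusted p = 0.0378 and 0.0423). Myl9 lay between 1.05 and 9.38 CPM in the hairpin libraries and was called in none of these comparisons.

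Mylk, the kinase that phosphorylates the regulatory light chain, was the member besides Myh9 that moved with both hairpins. In EV cells it was at 9.495 and 12.55 CPM with shNC, 29.6 and 20.2 CPM with shMyh9#2, and 22.3 and 24.7 CPM with shMyh9#4. In WT cells it was at 19.9 and 25.7 CPM with shNC, 37.4 and 36.5 CPM with shMyh9#2, and 39.7 and 30.5 CPM with shMyh9#4. In dHLH cells it was at 23.0 and 25.0 CPM with shNC, 53.5 and 34.7 CPM with shMyh9#2, and 53.5 and 49.9 CPM with shMyh9#4. Every library with a Myh9 hairpin was above both shNC libraries of its own construct.

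Averaged over the 3 constructs, Mylk rose by 0.91 on the log2 scale with shMyh9#2 (95% interval 0.63 to 1.18, adjusted p = 2.79e-04) and by 0.94 with shMyh9#4 (0.66 to 1.22, adjusted p = 8.25e-04), and both calls held without any 1 of the 18 libraries. In these averaged comparisons, which share the 6 shNC libraries, Mylk rose and Myh9 fell among the 9 genes, against 6.27% of all genes called with shMyh9#2 and 5.29% with shMyh9#4. Between the hairpins Mylk differed by 0.09 in EV cells (-0.39 to 0.56), 0.08 in WT cells (-0.38 to 0.53) and -0.28 in dHLH cells (-0.74 to 0.19), and edgeR called none of these 3 differences, while Myh9 was lower with shMyh9#2 than with shMyh9#4 in all 3. Within single constructs Mylk passed in EV cells with shMyh9#2 (1.175, adjusted p = 0.00583) and shMyh9#4 (1.09, adjusted p = 0.02005) and in dHLH cells with shMyh9#4 (1.13, adjusted p = 0.00373), and not in the others (0.61 to 0.85, adjusted p from 0.0849 to 0.262), although DESeq2 called dHLH cells with shMyh9#2 as well (adjusted p = 0.0378).

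Mylk values against shNC depend on the level in the shNC libraries, which differed between constructs. Mean Mylk with shNC was 22.76 CPM in WT and 23.98 CPM in dHLH cells. Without a hairpin, YUMM2.1 cells with WT and dHLH held 26.68 and 25.38 CPM. With a Myh9 hairpin, the group means in WT and dHLH cells lay between 35.12 and 51.71 CPM. EV shNC held the lowest Mylk level of the 20 groups, 11.02 ± 2.16 CPM (SD, n = 2), against 20.25 and 31.9 CPM in YUMM2.1 EV cells without a hairpin. EV shNC was below those cells (log2 difference -1.23, adjusted p = 0.00428), a call lost without YUMM2.1 EV replicate 2 (-0.89, adjusted p = 0.0815), without EV shNC replicate 1 (-1.05, adjusted p = 0.0891) or without both doubtful libraries (-0.88, adjusted p = 0.0920). In EV cells, the Mylk call with shMyh9#2 was lost without EV shNC replicate 1 (0.99, adjusted p = 0.108) or EV shMyh9#2 replicate 1 (0.87, adjusted p = 0.129). The call with shMyh9#4 was lost there without EV shNC replicate 1 (0.91, adjusted p = 0.302), EV shNC replicate 2 (1.31, adjusted p = 0.0665) or EV shMyh9#4 replicate 2 (1.01, adjusted p = 0.174) and in one fit of all 40 libraries (1.09, adjusted p = 0.0725), and in dHLH cells without dHLH shNC replicate 1 (1.07, adjusted p = 0.0538). Of 7 smooth muscle markers, a cell type rich in Mylk, 4 were measured well enough to test. Acta2 (2.37, adjusted p = 0.0231) and Smtn (0.43, adjusted p = 0.0119) rose with shMyh9#2 averaged over constructs, and Acta2 (2.35, adjusted p = 0.0370) with shMyh9#4. The summed level of the 7 ran from 25.6 to 48.4 CPM in the shNC libraries, from 43.2 to 64.6 CPM with shMyh9#2 and from 35.7 to 64.0 CPM with shMyh9#4, and the defining markers Myh11 and Cnn1 were at 0 in 28 and 35 of the 40 libraries. The part of these genes in the Mylk values was not tested. The melanocytic transcription factor gene Sox10 fell with shMyh9#2 averaged over constructs (-1.07, adjusted p = 2.255e-08), the endothelial cadherin gene Cdh5 rose with it (0.80, adjusted p = 0.00221), and no other of the 9 tested melanocytic, leukocyte, endothelial and epithelial markers was called by edgeR with either hairpin averaged over constructs. Within constructs, shMyh9#2 lowered 1 of 3 tested melanocytic markers in each kind of cell and raised 1 of 2 endothelial markers in EV cells. With shMyh9#4, 1 melanocytic marker was lower and 1 endothelial marker higher in EV cells, and 1 melanocytic marker was higher in dHLH cells. The summed level of the 7 melanocytic markers was 346 to 349 CPM in EV shNC, 204 to 217 CPM with shMyh9#2 and 250.1 to 282 CPM with shMyh9#4, and in dHLH cells 41.25 to 44.3, 31.5 to 37.6 and 68.8 to 73.55 CPM in the same order. The part of these markers in the Myh9, Mylk and Myl12a values was not tested.

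Ppp1r12a, the counterpart of Mylk at the phosphatase, was called in no hairpin comparison. With shMyh9#2 its log2 fold change was -0.15 in EV cells (95% interval -0.34 to 0.03), 0.05 in WT cells (-0.14 to 0.24) and 0.05 in dHLH cells (-0.14 to 0.24), and with shMyh9#4 it was -0.15, 0.0043 and 0.16. Over all 9 genes the median log2 fold change averaged over constructs was -0.041 with shMyh9#2 and 0.035 with shMyh9#4, beside medians of 0.0028 and 0.0014 over all genes tested.

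**Figure D4:**
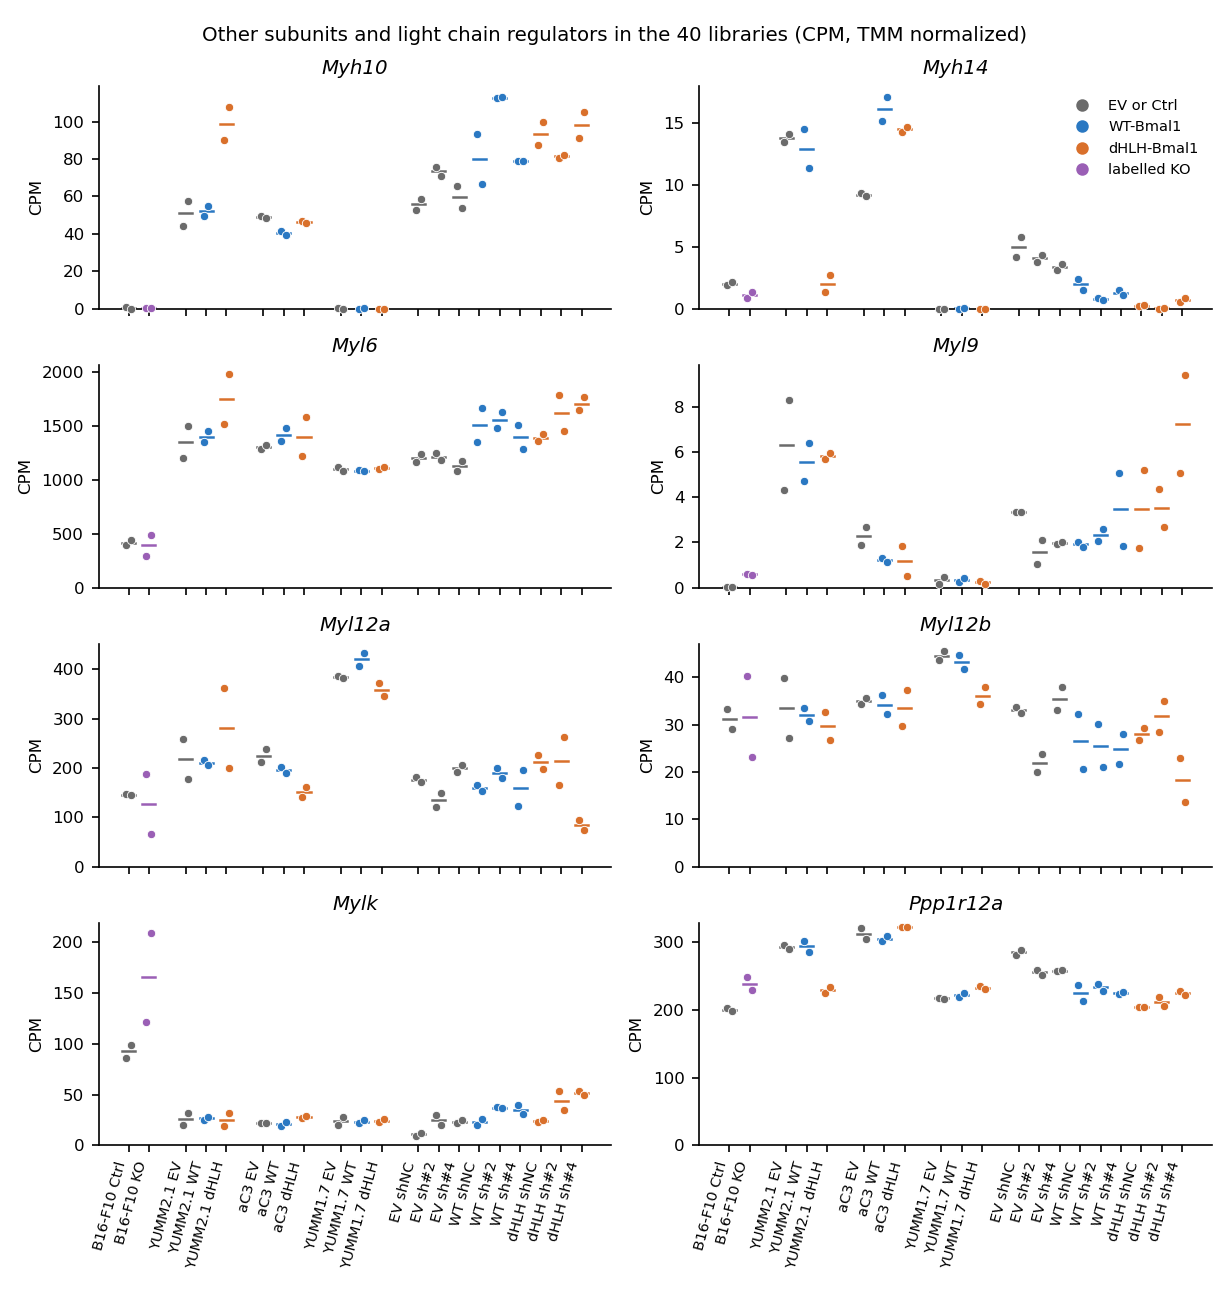
Level (CPM, TMM normalized, linear axes from 0 that differ between panels) of the 8 genes other than Myh9 in each of the 40 libraries, with a line at each group mean. Mylk is above its own shNC control in all 12 libraries with a Myh9 hairpin, Myl12a is lowest among the 18 hairpin libraries with shMyh9#4 in dHLH cells, and Myh10, Myh14 and Myl9 are near 0 in YUMM1.7.

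Genes of actin filaments and of other class II myosins were read against 6.27% of all genes called with shMyh9#2 and 5.29% with shMyh9#4, averaged over constructs. Of 19 actin filament partners, 4 were higher and none lower with shMyh9#2, namely Svil (0.50), which binds actin and myosin II, Septin2 (0.35), a scaffold of myosin II, Myo18a (0.24) and the tropomyosin gene Tpm1 (0.17). With shMyh9#4, 4 of the 19 were higher and 3 lower. Svil, Septin2 and Myo18a were also among those higher with shMyh9#4 (0.44, 0.80 and 0.32), the 3 lower were Actg1 (-0.69), Actn4 (-0.30) and Septin7 (-0.24), and the adjusted p of all these values lay between 2.64e-04 and 0.0391. In dHLH cells alone shMyh9#4 gave 4 higher and 4 lower of the 19 actin partners, where 15.1% of all genes passed. Averaged over constructs, the median log2 fold change of the actin partners was 0.12 with shMyh9#2 and -0.02 with shMyh9#4. Of 22 genes of muscle and other class II myosins, 3 (Myl6b, Mylpf and Mylk3) had enough counts to test, and edgeR called none of them with either hairpin.

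The Bmal1 constructs moved several subunits in YUMM2.1 cells with shNC. Myh9 rose with WT by 0.51 on the log2 scale (95% interval 0.31 to 0.71, adjusted p = 7.49e-04) and with dHLH by 0.39 (0.19 to 0.59, adjusted p = 0.00464). Myh10 rose with WT by 0.52 (adjusted p = 0.0151) and with dHLH by 0.75 (adjusted p = 8.52e-04). Mylk rose with WT by 1.05 (adjusted p = 0.00430) and with dHLH by 1.12 (adjusted p = 0.00194). Both Mylk values are set against EV shNC, the group with the lowest Mylk level of the 20, and in YUMM2.1 cells without a hairpin, whose 6 libraries lay between 19.02 and 31.9 CPM, the same comparisons gave 0.034 and -0.034. Ppp1r12a fell by 0.34 with WT (adjusted p = 0.0101) and by 0.47 with dHLH (adjusted p = 6.59e-04), from 282 and 289 CPM in EV to 237 and 213 CPM in WT and to 204.5 CPM in both dHLH libraries. Thus 4 of the 9 genes passed with WT, where 22.3% of all genes did, and 5 with dHLH, where 26.4% did. Markers moved with the constructs as well. The summed melanocytic level was 346 to 349 CPM in EV shNC, 119 to 122 CPM in WT shNC and 41.25 to 44.3 CPM in dHLH shNC, and Sox10 was lower with WT (log2 fold change -1.74, adjusted p = 4.29e-09) and with dHLH (-3.77, adjusted p = 5.51e-13). Cdh5 rose with WT (2.12, adjusted p = 2.16e-05) and with dHLH (adjusted p = 5.43e-04), 1 of 4 smooth muscle markers was higher with each construct, and 1 of 2 epithelial markers was higher with dHLH. The part of these markers in the values of the 9 genes was not tested.

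The fifth was Myh14, which with dHLH was at 5 counts over both libraries against 86 in EV shNC, a ratio of 20.8 with a 95% counting interval of 8.56 to 65.6 (fitted log2 fold change -4.25, adjusted p = 6.10e-05). Between dHLH and WT with shNC, Myh14 alone passed (5 against 31 counts, log2 fold change -2.93, adjusted p = 0.0247), where 1.91% of genes did, and that call was lost without any 1 of the 4 libraries compared (adjusted p from 0.0547 to 0.357). Several of the calls with WT rested on single libraries. Without EV shNC replicate 1, Myh10 (0.45, adjusted p = 0.126), Mylk (0.87, adjusted p = 0.0688) and Ppp1r12a (-0.36, adjusted p = 0.0510) were not called. Nor were Myh10 without WT shNC replicate 1 (0.27, adjusted p = 0.243) or in one fit of all 40 libraries (0.52, adjusted p = 0.113), Mylk without WT shNC replicate 2 (0.85, adjusted p = 0.0679), and Ppp1r12a without EV shNC replicate 2 (-0.34, adjusted p = 0.0612) or WT shNC replicate 2 (-0.27, adjusted p = 0.123). With dHLH, Myh9 was not called without EV shNC replicate 2 (0.34, adjusted p = 0.0574).

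YUMM2.1 cells without a hairpin shared part of this pattern. Myh10 was at 44.3 and 57.6 CPM with EV, 49.55 and 55.0 CPM with WT and 90.3 and 108 CPM with dHLH, and it rose with dHLH by 0.96 against EV (95% interval 0.56 to 1.37, adjusted p = 0.0148). Myh14 was at 13.4 and 14.1 CPM with EV, 14.5 and 11.4 CPM with WT and 1.325 and 2.73 CPM with dHLH, and it fell by 2.78 on the log2 scale (-3.62 to -1.94, adjusted p = 0.00527). Against WT the changes with dHLH were 0.93 for Myh10 (adjusted p = 0.0169) and -2.69 for Myh14 (adjusted p = 0.00574). These heavy chains were the only members called with dHLH, 2 of 9, where 13.2% of genes passed against EV and 13% against WT. The Myh10 calls were lost without EV replicate 1 (0.78, adjusted p = 0.0741) or dHLH replicate 2 (0.82, adjusted p = 0.0686) against EV, and against WT without WT replicate 1 (0.85, adjusted p = 0.158), WT replicate 2 (0.99, adjusted p = 0.0729), dHLH replicate 2 (0.79, adjusted p = 0.0767) or both doubtful libraries (0.85, adjusted p = 0.0727).

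In these cells WT against EV called no gene at all (0% of 14323 genes tested with edgeR, 98 of them with an unadjusted p under 0.05, and 0 with DESeq2), and the log2 fold changes of the 9 genes lay between -0.18 and 0.04. With the doubtful labels exchanged 101 genes passed, and Myh9 was at 0.25 (adjusted p = 0.440). With the replicate number as a block, dHLH raised Myh9 by 0.33 against EV (adjusted p = 0.0216) and by 0.39 against WT (adjusted p = 0.0103), Myl6 by 0.37 (adjusted p = 0.0140) and 0.32 (adjusted p = 0.0292), and lowered Ppp1r12a by 0.35 in both (adjusted p = 0.0205 and 0.0207). Without the block none of the 3 passed (adjusted p = 0.245 and 0.173 for Myh9, 0.205 and 0.266 for Myl6, 0.0934 and 0.0939 for Ppp1r12a). With the block, of all genes, 3877 and 3727 were called against EV and WT, in place of 1894 and 1868, and 2 genes for WT against EV in place of 0. With the labels exchanged and no block, dHLH against EV also called Myh9 (0.49, adjusted p = 0.0166), Myl6 (0.46, adjusted p = 0.0340) and Ppp1r12a (-0.38, adjusted p = 0.0175), and dHLH against WT called Ppp1r12a (-0.32, adjusted p = 0.0483).

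**Figure D5:**
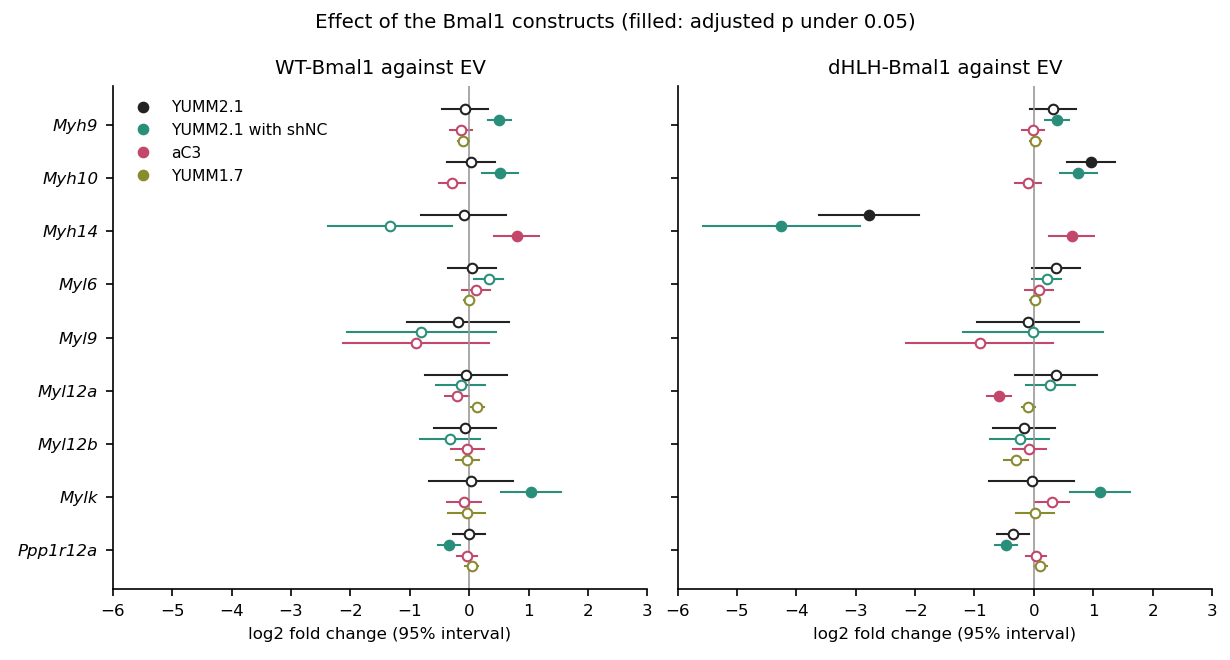
Log2 fold change of each gene with WT-Bmal1 (left) and dHLH-Bmal1 (right) against EV in YUMM2.1, YUMM2.1 with shNC, aC3 and YUMM1.7 cells. Bars are 95% intervals of the edgeR fit without a block and filled points have an adjusted p under 0.05, and genes not tested in a line have no point. With dHLH the Myh14 points of both YUMM2.1 sets lie left of 0 and that of aC3 right of 0.

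In the Bmal1-null aC3 clone the heavy chains did not follow this pattern. Myh14 was at 9.38 and 9.08 CPM with EV, 15.2 and 17.1 CPM with WT and 14.3 and 14.7 CPM with dHLH, and it rose with WT by 0.80 (95% interval 0.43 to 1.18, adjusted p = 0.00980) and with dHLH by 0.64 (0.26 to 1.02, adjusted p = 0.0347). Myh10, at 39.2 to 49.6 CPM, had log2 fold changes of -0.29 with WT (adjusted p = 0.0876) and -0.10 with dHLH (adjusted p = 0.594). Myl12a fell by 0.58 with dHLH (-0.79 to -0.38, adjusted p = 0.00179), from 211 and 238 CPM in EV to 141 and 161 CPM. Thus 1 of 9 genes passed with WT and 2 with dHLH, where 11.2% and 10.9% of genes did. Between dHLH and WT no member passed with edgeR, 2 had an unadjusted p under 0.05, DESeq2 called Myl12a, and 0.877% of genes passed. The calls in aC3 depended on single libraries as follows. That of Myl12a was lost without EV replicate 2 (-0.50, adjusted p = 0.0517), that of Myh14 with WT without EV replicate 1 (adjusted p = 0.0593), EV replicate 2 (adjusted p = 0.0717) or WT replicate 2 (adjusted p = 0.0976), and that of Myh14 with dHLH without any of the 4 libraries compared (adjusted p up to 0.179) and with DESeq2 (adjusted p = 0.1198). In one fit of all 40 libraries none of these 3 calls held (adjusted p = 0.172 and 0.347 for Myh14 with WT and dHLH, and 0.428 for Myl12a). Melanocytic markers also moved in opposite directions with dHLH. In YUMM2.1 cells without a hairpin their summed level was 497.8 to 515.9 CPM with EV and 81.38 to 94.01 CPM with dHLH. In aC3 it was 453.1 to 465.6 CPM with EV, 561.6 to 566.6 CPM with WT and 563.9 to 626.2 CPM with dHLH. The part of these markers in the heavy chain values was not tested.

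The effect of dHLH differed between aC3 and YUMM2.1 for 3 of the 9 genes, where 11.6% of genes differed. It was higher in aC3 by 3.43 for Myh14 (95% interval 2.51 to 4.36, adjusted p = 5.01e-06) and by 0.40 for Ppp1r12a (0.18 to 0.61, adjusted p = 0.01115), and lower for Myh10 (-1.04, -1.71 to -0.38, adjusted p = 0.03415). The Myh14 difference held without any 1 of the 4 EV libraries. The dHLH libraries were not left out for these differences, and YUMM2.1 dHLH rested on 14 and 23 counts of Myh14. The Myh10 difference was lost without YUMM2.1 EV replicate 1 (-0.87, adjusted p = 0.157) or either aC3 EV library (adjusted p = 0.0858 and 0.07585), and that of Ppp1r12a without YUMM2.1 EV replicate 1 (0.37, adjusted p = 0.0615), aC3 EV replicate 2 (0.34, adjusted p = 0.0977) or with no filter on low counts (adjusted p = 0.255). For Myh9 the difference was -0.33 (-0.68 to 0.03, adjusted p = 0.275), and -0.49 (adjusted p = 0.03255) with the doubtful labels exchanged. The effect of WT differed for none of the 9 genes between aC3 and YUMM2.1 with edgeR or DESeq2 (1 with an unadjusted p under 0.05), where 0.168% of genes differed. Before any construct, aC3 EV and YUMM2.1 EV differed in none of the 9 genes with edgeR or DESeq2 (1 with an unadjusted p under 0.05), where 2.48% of genes differed, and Myh9 was within -0.42 to 0.08 of YUMM2.1 EV on the log2 scale.

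In YUMM1.7 cells 6 of the 9 genes had enough counts to test. WT against EV and dHLH against EV called none of the 6 with edgeR or DESeq2 (1 each with an unadjusted p under 0.05), where 0.138% and 0.63% of genes passed. The log2 fold change of Myh9 was -0.10 with WT (adjusted p = 0.483) and 0.02 with dHLH (95% interval -0.07 to 0.12, adjusted p = 0.895). Between dHLH and WT, Myl12a was lower (log2 difference -0.24, -0.35 to -0.12, adjusted p = 0.0245) and alone passed, where 2.57% of genes did, a call lost without either EV library (adjusted p = 0.0704 and 0.0651), WT replicate 2 (adjusted p = 0.1201) or dHLH replicate 2 (adjusted p = 0.2801) and in one fit of all 40 libraries. The dHLH effect on Ppp1r12a was higher in YUMM1.7 than in YUMM2.1 by 0.45 (0.24 to 0.67, adjusted p = 0.00448), where 9.42% of genes differed, a call lost with no filter on low counts (adjusted p = 0.148). The effect of WT differed between these lines in 0% of genes, with 351 of 16619 at an unadjusted p under 0.05 and 1 called by DESeq2, and in none of the 9 members by either tool (0 of 9 with an unadjusted p under 0.05).

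In B16-F10 cells the libraries labelled Bmal1 KO and the Ctrl libraries were called apart for none of the 8 genes tested by edgeR or DESeq2 (2 with an unadjusted p under 0.05), where 0.44% of genes passed. Both KO libraries stood far from each other, with Mylk at 122 and 209.5 CPM against 86.3 and 99.3 CPM in Ctrl, and Myl12a at 187 and 66.7 CPM against 147 and 145 CPM. Several values turned on which KO library was kept, under the assumption that the lone library varies like the Ctrl pair. Myl12a was higher in KO by 0.35 without KO replicate 2 (adjusted p = 0.0245) and at -1.135 without KO replicate 1 (adjusted p = 4.69e-17). Mylk was at 1.17 without KO replicate 1 (adjusted p = 1.03e-21) and 0.38 without KO replicate 2 (adjusted p = 0.0133), beside 0.83 with both (0.11 to 1.55, adjusted p = 0.372). Myh9 (0.51, adjusted p = 1.05e-04) and Myl12b (-0.44, adjusted p = 0.0130) were called without KO replicate 1, and Myl6 (-0.51, adjusted p = 9.01e-04) without KO replicate 2.

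The lines differed most in the minor heavy chains and in Myl9. Line and library preparation cannot be told apart in these comparisons. Totals were 19348395 and 19367158 counts in B16-F10 Ctrl, 9097676 and 11356803 in YUMM2.1 EV, and 10440447 and 11035156 in YUMM1.7 EV. Myh10 was at 44.3 and 57.6 CPM in YUMM2.1 EV, at 0.27 and 0.09 CPM in YUMM1.7 EV, a ratio of 274 with a 95% counting interval of 107 to 1009, and at 1.19 and 0.10 CPM in B16-F10 Ctrl. Myh14 was at 13.4 and 14.1 CPM in YUMM2.1 EV, at 1.91 and 2.18 CPM in B16-F10 Ctrl and at 0 in both YUMM1.7 EV libraries, so that YUMM2.1 EV was at least 100.4-fold and B16-F10 Ctrl at least 14.9-fold higher, against a floor of 3 counts over both libraries. YUMM2.1 EV libraries held Myl9 at 4.315 and 8.30 CPM, YUMM1.7 EV libraries at 0.18 and 0.47 CPM, and each B16-F10 Ctrl library had 1 count of it. Myh9 made up 91.1% of heavy chain counts in YUMM2.1 EV, 98.8% in B16-F10 Ctrl and 99.97% in YUMM1.7 EV. Markers differed between these groups as well. The summed melanocytic level was 24430 to 26040 CPM in B16-F10 Ctrl, 497.8 to 515.9 CPM in YUMM2.1 EV and 14.16 to 14.79 CPM in YUMM1.7 EV. Smooth muscle markers summed to 12.16 to 13.39, 36.1 to 45.17 and 173.2 to 175.7 CPM in the same order. The part of these markers in the line differences was not tested.

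Against YUMM2.1 EV, YUMM1.7 EV differed in 5 of the 9 genes, where 31.8% of genes did. Besides Myh10, Myh14 and Myl9, which were lower, Ppp1r12a was lower (log2 difference -0.43, adjusted p = 3.40e-05) and Myl12a higher by 0.82 (adjusted p = 0.0331). The Myl12a call was lost with the doubtful labels exchanged (adjusted p = 0.0578), with both doubtful libraries left out (adjusted p = 0.316), and without either YUMM1.7 EV library or YUMM2.1 EV replicate 2 (adjusted p from 0.106 to 0.289). B16-F10 Ctrl differed from YUMM2.1 EV in 7 of 9 genes, where 46.9% of genes did. Myh9 was at 34.6% of YUMM2.1 EV (log2 difference -1.53, adjusted p = 3.78e-11), Myl6 at 30.8% (-1.70, adjusted p = 2.39e-09) and Ppp1r12a at 68.5% (-0.55, adjusted p = 5.29e-07), while Mylk was 3.575-fold higher (1.84, adjusted p = 8.26e-07) and Myh10, Myh14 and Myl9 were lower. B16-F10 Ctrl differed from YUMM1.7 EV in 6 of 9 genes, where 47.6% of genes did, with Myh9 at 35.5% (adjusted p = 5.42e-11), Myl6 at 37.9% (adjusted p = 6.99e-08), Myl12a at 37.9% (adjusted p = 2.76e-04) and Mylk 3.82-fold higher (adjusted p = 3.31e-07). The sixth call there, of Myl9, rests on 7 counts against 2 and was lost with DESeq2 (adjusted p = 0.0689), with no filter on low counts (adjusted p = 0.0563), and without either B16-F10 Ctrl library or YUMM1.7 EV replicate 2 (adjusted p from 0.129 to 0.378).

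YUMM2.1 EV shNC differed from YUMM2.1 EV cells without a hairpin in 2 of 9 genes, where 10.7% of genes did. The control hairpin and library preparation cannot be told apart here. Mylk, given above, was lower, and Myh14 was lower (log2 difference -1.45, 95% interval -2.09 to -0.82, adjusted p = 0.00267), a call lost without EV shNC replicate 1 (-1.25, adjusted p = 0.0696). Myh9 was at 103% of the cells without a hairpin (-0.21 to 0.30 on the log2 scale, adjusted p = 0.893).

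Across the 20 group means of log2 CPM the members did not vary as a block. As a description over 20 points that share cell lines, the Pearson correlation of Myh9 was 0.49 with Myl6, 0.15 with Myh10 and -0.60 with Mylk, that of Myh10 with Myl9 was 0.84, that of Myh14 with Ppp1r12a 0.87, and that of Myl12a with Myl12b, which share reads, 0.78. Among 8927 other genes with a mean of at least 10 CPM, the most alike to Myh9 were Bmpr1a (0.77), Nae1 (0.75) and Rab11b (0.75). For Myh10 they were Cnrip1 (0.996), Kcnj12 (0.99) and Robo2 (0.99), for Myh14 L1cam, Erbb3 and Itgb3 (0.98 each), for Myl6 Rftn2, Ak1 and Pak1 (0.98 each) and for Myl9 Robo2 (0.89), Gfra2 (0.88) and Snupn (0.87). For Myl12a they were Rbms1 (0.95), Msrb3 (0.94) and Rce1 (0.93), for Myl12b Gm10012 (0.94), Tpst1 (0.94) and Crtap (0.93), for Mylk Scpep1, Spg20 (0.92 each) and Ssbp4 (0.91), and for Ppp1r12a Lbh (0.96), Lgr5 and Ppp2r2a (0.95 each). The highest correlation of another gene with Myh9 was lower than that found for any of the other 8 members. Groups with a hairpin against Myh9 itself are among the 20 and enter every correlation with Myh9, also that with Mylk. Correlations without these groups were not computed.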

How the data were processed

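RNA of 40 libraries from mouse melanoma cells was sequenced as single QuantSeq 3′ reads. The authors aligned reads to mm10 with bowtie2 and made gene counts with RSEM, and the deposited table of counts is whole numbers with no normalization. The Ensembl release and the use of strand are not given in the sources used here. Groups came from the labels.

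From the deposited counts, each experiment (hairpin YUMM2.1, YUMM2.1, aC3, YUMM1.7, B16-F10, and all 40 libraries for lines and differences between lines) was fitted with edgeR 4.0.16 (limma 3.58.1, R 4.3.3), using filterByExpr, TMM scaling, the quasi-likelihood F test and Benjamini-Hochberg adjustment over all genes, called under 0.05. Heavy chain sums were compared by exact permutation with scipy 1.17.1. DESeq2 1.42.0 was an alternative. Named genes are the 9 members, at most 5 per list and direction with the largest called change averaged over constructs with shMyh9#2, and the 3 genes most correlated with each member over 20 group means (log2 CPM plus 0.5, mean of at least 10 CPM). Genes named with shMyh9#4 and the markers named were chosen after their values were seen. The members and lists were chosen with earlier results of these data known.

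Same-numbered YUMM2.1 libraries without a hairpin deviated together (correlations 0.33 to 0.67 over 3 pairs of groups), so blocked values stand beside their results. Depth was 3643332 to 22970049 counts per library. Some alleles and genes are not reported here.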

Additional observations from a re-analysis of the deposited data

Results flagged for a closer look

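Each of these results is a difference between 2 kinds of cell in the effect of the same hairpin or construct, with an adjusted p under 0.05 for the difference itself (edgeR). The effect of shMyh9#2 on Myh9 differed between WT and EV cells by -0.5233 on the log2 scale, and that of shMyh9#4 between dHLH and WT cells by 0.5116. For Myl12a the effect of shMyh9#4 in dHLH cells differed from that in EV cells by -1.49 and from that in WT cells by -1.322. The effect of dHLH in aC3 cells differed from that in YUMM2.1 cells by -1.042 for Myh10, 3.434 for Myh14 and 0.3958 for Ppp1r12a. The effect of dHLH on Ppp1r12a differed between YUMM1.7 and YUMM2.1 cells by 0.4542. The causes of these differences were not tested.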

How the results depend on the processing

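Over 341 member results, 67 of them called, DESeq2 size factors kept all 67 calls. The DESeq2 Wald test lost 3 and added 8, no filter on low counts lost 3 and added 19, one fit of all 40 libraries lost 10 of 43 and added 7, one construct fitted alone lost 2 of 16 and added 3, exchanging the doubtful labels lost 1 of 22 and added 7, leaving out both doubtful libraries lost 3 of 22, and leaving out 1 library lost 93 of 774. The replicate block lost 1 call (Myh10 between the hairpins in WT cells, 0.51, adjusted p = 0.0509) and added 7. Outside YUMM2.1 cells without a hairpin, libraries share only a number (mean correlation -0.01 in hairpin libraries, 0.095 in aC3, -0.063 in YUMM1.7 and 0.127 in B16-F10).

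For Myh9, one fit of all 40 libraries left the difference of the shMyh9#2 effect between WT and EV cells at -0.5132 and that of shMyh9#4 between dHLH and WT cells at 0.4933, both no longer called. Calls were gained for shMyh9#4 between WT and EV cells with DESeq2 (-0.4279), for dHLH against EV in YUMM2.1 with the replicate block (0.3311) and the exchange (0.4901), for dHLH against WT with all 40 libraries (0.3883) and the block (0.3901), and with the exchange for the dHLH effect in aC3 (-0.4895) and YUMM1.7 (-0.4677) against YUMM2.1. With the exchange and with both libraries left out, WT against EV in YUMM2.1 moved to 0.2461 and 0.1769 and YUMM1.7 against YUMM2.1 to 0.1276 and 0.1235, and aC3 against YUMM2.1 moved to 0.02556 with both left out. In B16-F10 KO against Ctrl, leaving out 1 library gave -1.135 to 0.351 for Myl12a, reversed without KO replicate 2, and -0.4359 to 0.3577 for Myl12b, reversed without KO replicate 1. Causes were not tested.

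Leaving out 1 library, Myh9 ranged from -0.5477 to -0.4665 for shMyh9#4 in EV cells, -0.4823 to -0.3828 in dHLH cells, 0.3421 to 0.429 for dHLH against EV with shNC, -0.571 to -0.4516 and 0.4182 to 0.6172 for the differences of the shMyh9#2 and shMyh9#4 effects, 0.01199 to 0.513 in B16-F10, -0.2302 to 0.1075 for WT against EV in YUMM2.1, -0.1989 to 0.1384 for YUMM1.7, -0.1268 to 0.2178 for EV shNC and -0.3347 to -0.005816 for aC3, each against YUMM2.1 EV. Counts of all genes called ranged over alternatives from 580 to 1195 for shMyh9#2 averaged over constructs (931), 289 to 1461 for shMyh9#4 averaged (786), 194 to 2659 for shMyh9#4 in dHLH cells (2248) and 40 to 6612 in B16-F10 (64). With 2 libraries a group and Myh14 and Myl9 on few counts, differences in those genes were often not detectable at this depth.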
